A study of Rattus norvegicus with 19 samples.

Results

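The genes described here are those whose RNA level in the paraventricular nucleus (PVN) was higher in every library of spontaneously hypertensive rats (SHR) than in every library of Wistar rats. Levels were given as CPM, a gene's count divided by the total count of its library and multiplied by 1000000. A gene was a member when it had at least 1 CPM in all 10 SHR libraries and its lowest SHR value was at least 1.1 times its highest value in the 9 Wistar libraries. This gave 44 members out of the 30560 genes in the table. The first condition alone was met by 13755 genes, and the 44 members were 0.32% of them. The members were chosen by these measured CPM values, so the strain differences given below describe them and are not evidence about them. Members are numbered from 1 to 44 by their separation, the ratio of the lowest SHR value to the highest Wistar value, with member 1 the widest.

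The PVN is a hypothalamic nucleus whose neurons release vasopressin and oxytocin, drive the pituitary stress axis and project to autonomic centres that set sympathetic tone, and it is studied in hypertension for that reason. SHR is an inbred strain, in which rats are close to genetically identical and develop hypertension without treatment. Wistar is an outbred normotensive stock, so its rats carry different combinations of alleles. SHR and Wistar differ across the genome, and with these groups a gene difference that accompanies hypertension cannot be told apart from any other strain difference.

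The rats were 14 weeks old. Bilateral PVN punches were taken from SHR of both sexes (5 males and 5 females), from 4 male Wistar and from 5 female Wistar rats, all implanted with a radiotelemetry probe, and 1 library of polyadenylated RNA was made per rat. The labels number the rats 2 to 5 in Wistar males and 1 to 5 in the other groups, and values are listed in that order. No rat was given a treatment other than this surgery and its perioperative drugs, and no transgene was involved. Library totals lay between 44943945 and 58793511 counts. A count of 0 allows up to 3 counts in a library, or 6 if both reads of a pair were counted, and such limits cover counting error only. In punches of whole tissue, more cells of a type and more RNA per cell cannot be told apart.

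The table lists Ensembl identifiers without symbols, chromosomes or positions, and no table used here pairs them. The functions of the members, their promoters and the markers of PVN neurons, glia and neighbouring hypothalamus could therefore not be looked up, and the labelled tissue was not checked against its markers. The member of widest separation, member 1, is ENSRNOG00000016164, and the member with the highest median SHR level, member 42, is ENSRNOG00000011148. Whether members share reads with near-identical copies or with overlapping genes was not tested.

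Most members were modestly separated, and a few stood far apart. The separation ran from 1.11 to 4.81 with a median of 1.35. It was at least 1.5 in 13 members, in 5 of which it was at least 2, and under 1.5 in the rest. Just inside the margin lay members 42, 43 and 44, at 1.12, 1.11 and 1.11, and the 3 genes just outside it had ratios of 1.097, 1.087 and 1.086. The median SHR level of a member ranged from 1.26 to 150.3 CPM. Added together, the members held 959 to 1058 CPM in SHR libraries (median 1008) and 489 to 572 CPM in Wistar libraries (median 529).

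**Figure D1:**
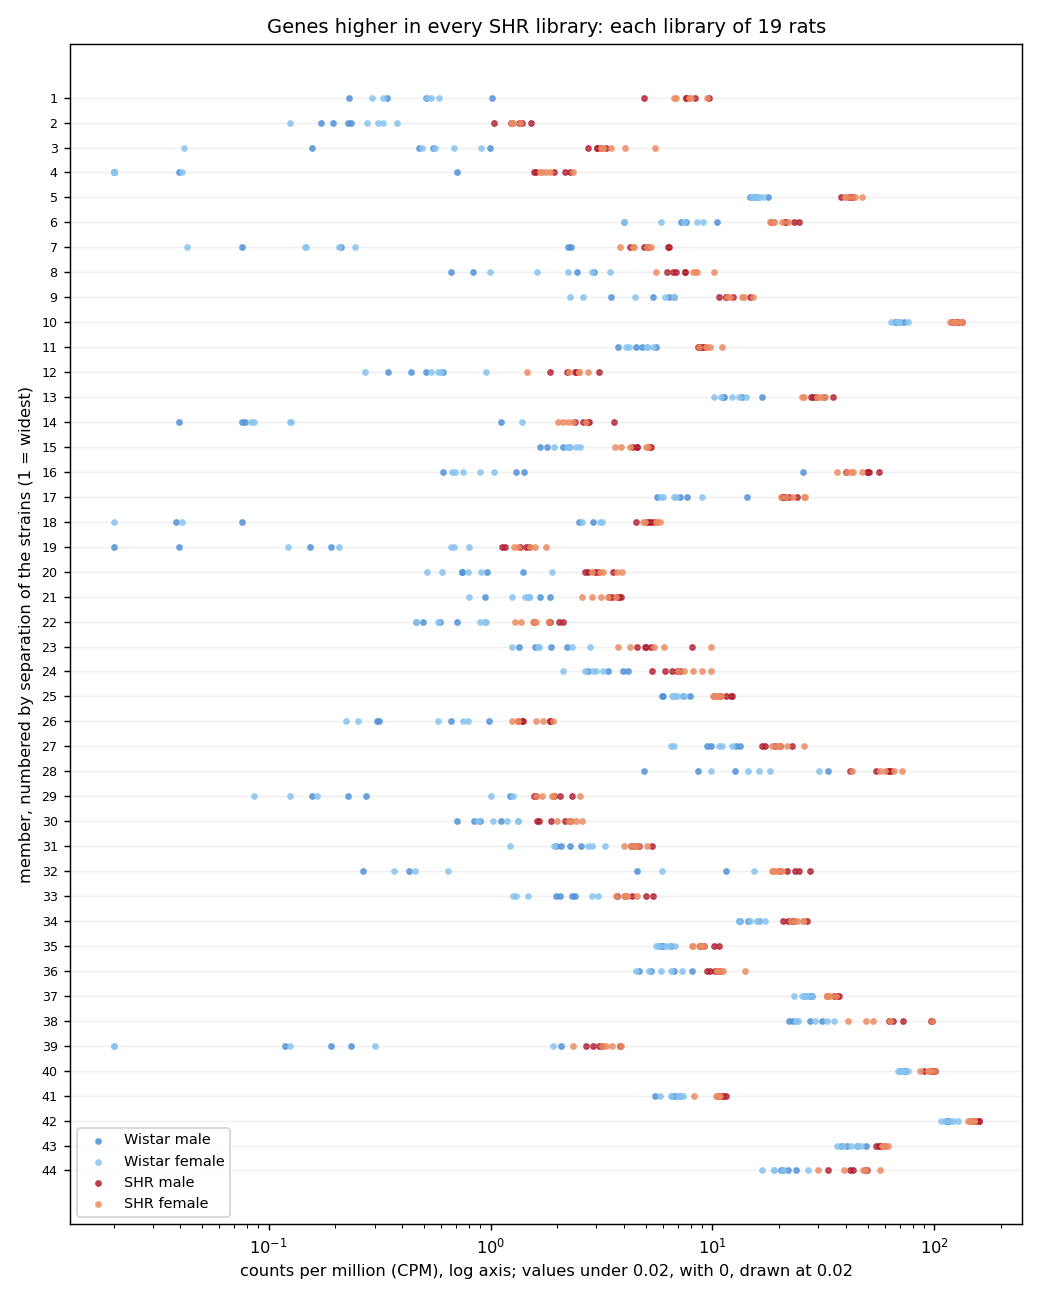
CPM of each of the 44 members (rows, numbered by separation) in each of the 19 libraries, on a log axis, with values under 0.02 drawn at 0.02. Points are single rats, coloured by strain and sex; in every row the SHR points lie to the right of the Wistar points, and in several rows the Wistar points are scattered far more widely than the SHR points.

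Member 1 had the widest gap. Its levels were 9.67, 4.90, 7.60, 7.59 and 8.31 CPM in the SHR males and 7.98, 6.74, 6.81, 9.48 and 7.80 CPM in the SHR females. In Wistar it had 0.342, 1.02, 0.512 and 0.230 CPM in males and 0.291, 0.539, 0.514, 0.326 and 0.588 CPM in females. The strains did not overlap, and Wistar male 3 was the highest Wistar library while SHR male 2 was the lowest SHR library. The male means were 7.61 ± 1.74 CPM in SHR (SD, n = 5) and 0.526 ± 0.349 CPM in Wistar (SD, n = 4), a ratio of 14.5. The female means were 7.76 ± 1.11 and 0.452 ± 0.134 CPM (SD, n = 5 each), a ratio of 17.2.

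Member 2 ranged from 1.04 to 1.52 CPM (median 1.26) in SHR and from 0.125 to 0.378 CPM (median 0.236) in Wistar. Its Wistar levels rested on no more than 18 counts in a library, and the sexes overlapped within each strain. Member 3 ranged from 2.74 to 5.52 CPM (median 3.18) in SHR and from 0.0416 to 0.998 CPM (median 0.549) in Wistar, and its Wistar values were scattered over a 24.0-fold range. Member 5 was the opposite in kind, abundant and tight, with 38.0 to 46.9 CPM (median 42.1) in SHR and 14.8 to 17.8 CPM (median 15.8) in Wistar. Its male ratio was 2.59 and its female ratio 2.66, so the 10 SHR rats and the 9 Wistar rats formed a pair of narrow bands.

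Members 6, 8 and 9 were intermediate. Member 6 ranged from 18.2 to 24.5 CPM (median 20.9) in SHR and 4.00 to 10.5 CPM (median 7.44) in Wistar. Member 8 ranged from 5.54 to 10.2 CPM (median 7.51) in SHR and 0.666 to 3.44 CPM (median 2.24) in Wistar. Member 9 ranged from 10.7 to 15.1 CPM (median 12.2) in SHR and 2.29 to 6.70 CPM (median 5.42) in Wistar. In these 3 members the Wistar rats varied by between 2.62-fold and 5.17-fold, and the SHR rats by less than 2-fold.

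The 8 members with the highest median SHR level were members 42, 10, 40, 38, 28, 43, 44 and 16. CPM values are not corrected for gene length, so this order does not compare molecules between genes. Member 42 had 142 to 159 CPM (median 150.3) in SHR and 107 to 128 CPM (median 115) in Wistar, a ratio of 1.35 in males and 1.26 in females. Member 10 had 118 to 134 CPM (median 126) in SHR and 63.9 to 76.0 CPM (median 69.1) in Wistar, with ratios of 1.83 and 1.81. Member 40 had 85.8 to 101 CPM (median 96.2) in SHR and 68.6 to 75.9 CPM (median 72.5) in Wistar, with ratios of 1.34 and 1.31. These 3 abundant genes combined small ratios with little scatter, the widest range within a strain being 1.19-fold.

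Member 43 also had small ratios, 1.32 in males and 1.42 in females, with 54.6 to 61.6 CPM (median 58.3) in SHR and 36.5 to 49.3 CPM (median 42.0) in Wistar. Member 38 had 40.6 to 97.8 CPM (median 64.2) in SHR and 22.05 to 35.1 CPM (median 27.5) in Wistar. Member 44 had 30.01 to 57.0 CPM (median 45.4) in SHR and 16.7 to 27.1 CPM (median 20.7) in Wistar. Both of these varied more among SHR rats than among Wistar rats. Member 28 was the reverse, with 41.4 to 71.5 CPM (median 60.6) in SHR against 4.90 to 33.3 CPM (median 14.4) in Wistar, where Wistar male 5 and Wistar female 5 had 33.3 and 30.04 CPM and the other Wistar rats no more than 18.1.

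No member was silent in Wistar. With near-silence set at a highest Wistar level under 0.2 CPM, 0 of the 44 members qualified, and under 0.5 CPM only member 2 did. The highest Wistar level was under 1 CPM in 7 members. Member 4 came nearest: its median Wistar level was 0, and it had 0 counts in 6 of the 9 Wistar libraries. Counts of 0 occurred in at least 1 Wistar library for 4 members (4, 18, 19 and 39), and in all Wistar libraries for none. By the median rather than the highest Wistar level, 4 members (4, 14, 19 and 39) were under 0.2 CPM and 15 were under 1 CPM. Members 14, 15, 18, 19, 20, 22, 24, 29, 31, 32, 36, 39 and 41 fall outside the naming rule and are named here, below or in the closing section after their values were seen. Among the 64 genes that met the mirror rule, lower in every SHR library than in every Wistar library, none had a highest or median SHR level under 0.2 CPM and 11 had a highest SHR level under 1 CPM.

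Member 4 had 1.56, 1.60, 2.28, 2.16 and 1.94 CPM in SHR males and 1.79, 2.36, 1.70, 1.85 and 1.66 CPM in SHR females. Its Wistar male values were 0, 0.706, 0.0394 and 0 CPM, and its Wistar female values were 0, 0, 0, 0.0408 and 0 CPM. All Wistar rats but male 3 were thus at or near 0, and that rat had 36 counts. The 5 SHR females held 465 counts and the 5 Wistar females 2 counts, a ratio of 223 after division by the library totals, with an exact 95% interval from 61.4 to 1846 that covers counting error only. If both reads of a pair were counted, those 2 counts may be the reads of 1 fragment, and the interval is then too narrow. In males the ratio of means was 10.2, and the Wistar mean there came mainly from Wistar male 3.

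For 7 members the Wistar libraries fell into a low and a high set. They were counted where the sorted Wistar values, CPM plus 0.1, had a step of at least 3-fold between neighbours. The 7 were members 4, 7, 14, 16, 18, 32 and 39. No member had such a step among its SHR libraries, and the widest SHR step of any member was 1.37-fold. Over the 13755 genes with at least 1 CPM in every SHR library, 70 genes (0.509%) had such a step in Wistar and 3 had one in SHR, and none of the 64 mirror genes had one in either strain. The rule sets no lower limit in Wistar and requires at least 1 CPM in SHR, so these counts are a description.

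Different Wistar rats formed the high set in different members. Member 16 had 0.609, 25.5, 1.30 and 1.42 CPM in Wistar males and 0.748, 1.04, 0.900, 0.693 and 0.672 CPM in Wistar females. Wistar male 3 alone was high, although still below the lowest SHR value of 36.6 CPM. The SHR males had 49.8, 40.1, 50.8, 49.95 and 56.1 CPM and the SHR females 42.9, 40.3, 36.6, 47.0 and 41.9 CPM. Member 7 had 0.0761, 2.31, 2.24 and 0.211 CPM in Wistar males, where rats 3 and 4 were high, and 0.145, 0.207, 0.0429, 0.245 and 0.147 CPM in Wistar females, where none was. Its SHR range was 3.84 to 6.36 CPM (median 4.99).

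Members 14 and 39 shared their high rats. Member 14 had 0.0761, 0.0784, 0.0394 and 1.11 CPM in Wistar males and 0.0831, 0.124, 0.0857, 1.39 and 0.126 CPM in Wistar females. Member 39 had 0.190, 0.235, 0.118 and 2.07 CPM in Wistar males and 0.125, 0, 0.300, 1.92 and 0 CPM in Wistar females. In both, Wistar male 5 and Wistar female 4 were high and the other 7 Wistar rats were at 0.300 CPM or less. Member 29, whose widest step of 2.95-fold fell just short of the limit, was high in the same pair of rats and in Wistar female 5, at 1.23, 1.26 and 1.01 CPM against no more than 0.276 CPM elsewhere. The SHR ranges were 2.01 to 3.60 CPM (median 2.51) for member 14, 2.36 to 3.87 CPM (median 3.18) for member 39 and 1.56 to 2.53 CPM for member 29.

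Members 18 and 32 were divided more evenly. Member 18 had 0.0761, 2.88, 2.50 and 0.0384 CPM in Wistar males and 3.12, 3.19, 2.57, 0.0408 and 0 CPM in Wistar females. Hence 5 Wistar rats were at 2.50 to 3.19 CPM and the other 4 at no more than 0.0761 CPM, while SHR rats were at 4.50 to 5.82 CPM (median 5.23). Member 32 had 0.266, 0.431, 4.55 and 11.5 CPM in Wistar males and 0.457, 5.95, 0.643, 0.367 and 15.3 CPM in Wistar females. There 5 Wistar rats lay under 1 CPM and the other 4 were graded from 4.55 to 15.3 CPM, while SHR rats were at 18.6 to 27.6 CPM (median 20.3). In these members, and in members 14 and 39, the high Wistar rats came from both sexes, while in members 4, 7 and 16 they were males.

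**Figure D2:**
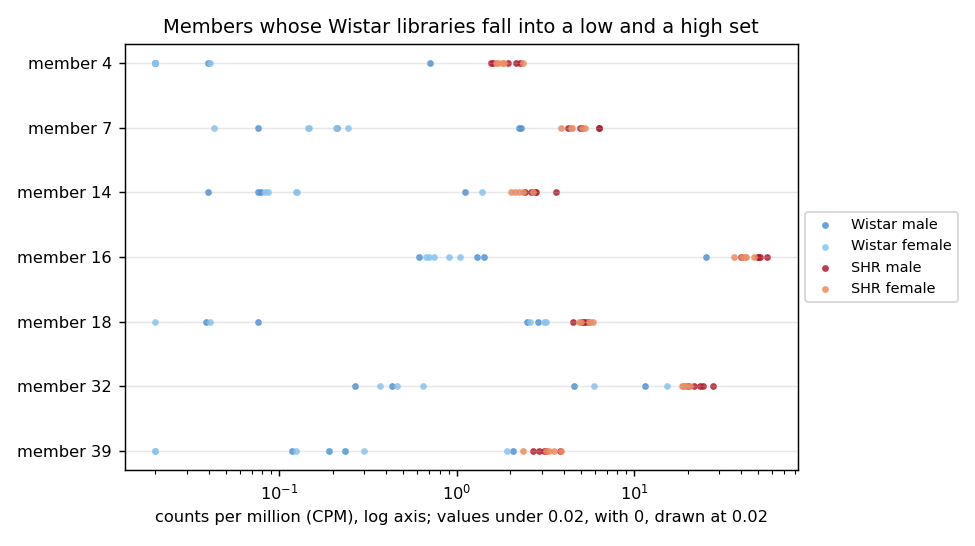
CPM of the 7 members whose Wistar libraries were divided by a step of at least 3-fold, 1 point per rat on a log axis, values under 0.02 drawn at 0.02. The SHR points of each member lie close together, and the Wistar points form a low and a high set, with 1 high rat in members 4 and 16, 2 in members 7, 14 and 39, 4 in member 32 and 5 in member 18.

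Scatter was mostly larger in Wistar than in SHR. The SD of log2(CPM + 0.1) about the group means, pooled over the sexes, was larger in Wistar for 38 of 44 members (86.4%). Over the 17432 genes above a mean of 5 normalised counts the share was 69.2%, and among the mirror genes it was 44 of 64 (68.8%). The median SD of the members was 0.17 in SHR and 0.38 in Wistar, against 0.16 and 0.21 over the 17432 genes. The highest SHR value was less than 1.5 times the lowest in 24 members and at least 2 times in 4, while in Wistar these counts were 11 and 26. The rule bounds Wistar values from above and SHR values from below, so the shares carry no test.

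The steadiest members among SHR rats were members 43, 42 and 10, with SDs of 0.04, 0.04 and 0.06 on the log2 scale. The most variable were members 23, 38 and 12. Member 23 had 4.99, 8.11, 4.58, 5.26 and 4.98 CPM in SHR males and 3.76, 4.23, 9.89, 5.48 and 6.04 CPM in SHR females, where SHR male 2 and SHR female 3 stood above the rest. Member 38 had 62.6, 71.9, 97.3, 65.2 and 96.7 CPM in SHR males and 49.2, 63.2, 97.8, 53.0 and 40.6 CPM in SHR females. High values of member 38 were thus in SHR males 3 and 5 and in SHR female 3. Member 12 ranged from 1.46 to 3.08 CPM (median 2.42) in SHR, with its lowest value in SHR female 3 and its highest in SHR male 2.

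**Figure D3:**
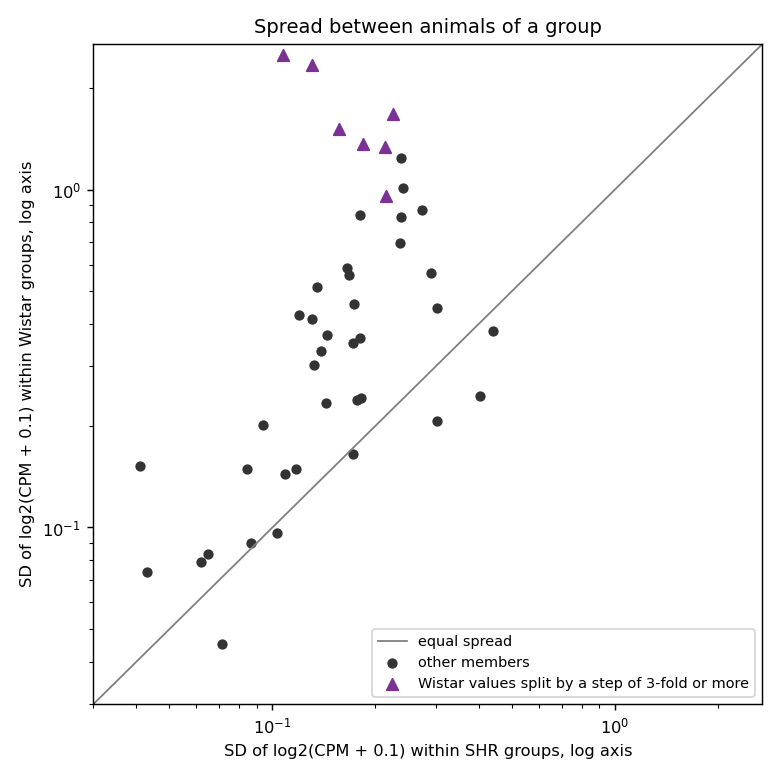
Pooled SD of log2(CPM + 0.1) within SHR groups (horizontal) and within Wistar groups (vertical) for each member, both on log axes, with the line of equal spread. Of 44 members, 38 lie above the line, and the 7 members with a divided Wistar group (triangles) are among the highest.

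The libraries that set the limits were several. The highest Wistar value of a member came most often from Wistar male 5 (9 members), Wistar female 4 (8) and Wistar female 5 (7), and at least 1 member owed it to each of the 9 Wistar libraries. The lowest SHR value came most often from SHR female 3 (9 members) and SHR female 5 (6), and every SHR library supplied at least 3.

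The size of the strain difference was next compared between the sexes, which share no library. The rule fixes the direction in both sexes and a ratio of at least 1.1, and it bounds the values of both sexes together. The likeness of the sexes in size is therefore a description and not a test. The log2 ratio of SHR to Wistar mean CPM ran from 0.38 to 3.86 in males (median 1.35). In females it ran from 0.33 in member 42 to 5.69 in member 16 (median over all 44 members 1.45), apart from member 4 with its 2 Wistar counts. The ratio was at least 1.5-fold in both sexes in 38 members, at least 2-fold in both in 27 and at least 4-fold in both in 9. It was under 1.5-fold in both sexes in 4 members. A ratio of at least 4-fold in males or in females only was found in 4 members.

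The male ratio was larger in 25 members and the female ratio in 19. The log2 values of the sexes lay within 0.25 of each other in 26 members, 0.25 to 0.5 apart in 10, 0.5 to 1 apart in 4 and over 1 apart in 4. Across the members, Pearson's r of the male and female log2 ratios was 0.73 and Spearman's rho was 0.91 (n = 44 genes, which are not independent replicates and were all chosen for a positive sign in both sexes). The closest were members 33, 37 and 10, with ratios of 2.05 in both sexes, of 1.30 in both sexes, and of 1.83 and 1.81.

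**Figure D4:**
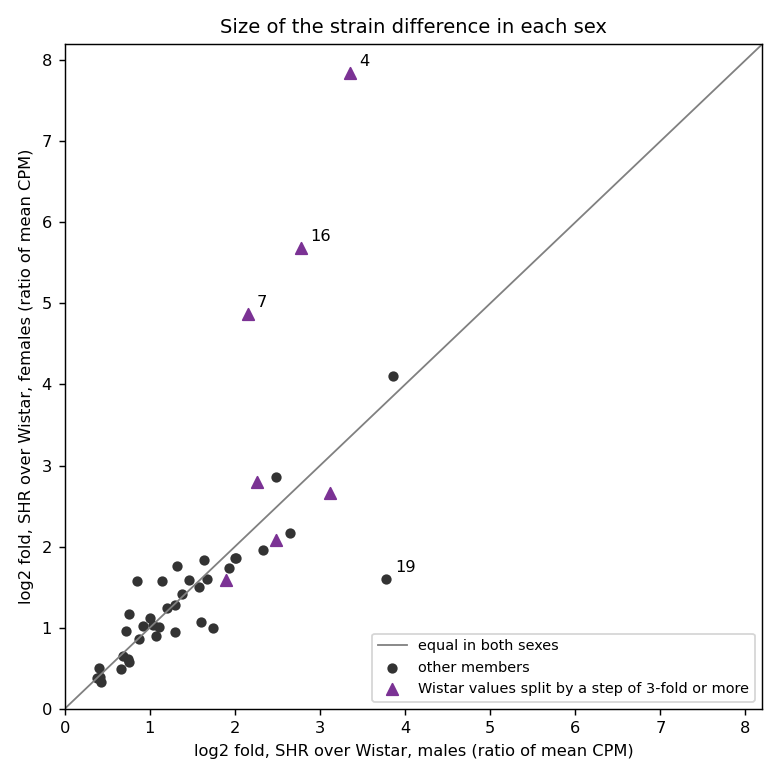
Log2 ratio of SHR to Wistar mean CPM in males (horizontal) and females (vertical), 1 point per member, with the line of equality; triangles are the 7 members with divided Wistar values. Most points lie near the line, members 4, 7 and 16 lie far above it and member 19 below it, and the height of member 4 rests on 2 Wistar counts.

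The 4 members over 1 apart were members 4, 7, 16 and 19. In member 7 the ratio was 4.45 in males and 29.2 in females, and in member 16 it was 6.85 and 51.5. The SHR means of the sexes lay close together: 5.39 ± 0.919 and 4.60 ± 0.571 CPM in member 7, and 49.4 ± 5.78 and 41.7 ± 3.81 CPM in member 16 (SD, n = 5 each, males first). Their Wistar male means held the high rats described above, 1.21 ± 1.23 and 7.21 ± 12.2 CPM (SD, n = 4), against female means of 0.157 ± 0.0766 and 0.810 ± 0.155 CPM (SD, n = 5). Member 19 went the other way, with a ratio of 13.7 in males and 3.02 in females. It had 0.190, 0, 0.0394 and 0.154 CPM in Wistar males and 0.665, 0.207, 0.686, 0.122 and 0.798 CPM in Wistar females, so that Wistar females 1, 3 and 5 stood well above the Wistar males, female 2 just above them and female 4 among them.

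Whether the strain difference itself differed between the sexes was tested as an interaction of strain and sex, with edgeR's quasi-likelihood test and Benjamini-Hochberg adjustment over all genes tested. The rule bounded the same values in both strains and sexes, so counts of members here are not independent of the choice. None of the 44 members passed an adjusted p of 0.05. The same was true of all 17432 genes tested (0%). The smallest adjusted p of a member by this edgeR test was 0.322, for member 24, whose strain difference was larger in females by 0.64 on the log2 scale (SE 0.19). At an unadjusted p under 0.05, 8 members passed, which is 4 with a larger difference in females and 4 with a larger one in males, beside 13.4% of all genes tested. With DESeq2, 48 of all genes and none of the members passed. With a block for the replicate number in the edgeR fit, 32 of the 17432 genes and none of the members passed. For members 4, 7, 16 and 19 the edgeR differences, females minus males, were 4.03, 2.62, 2.84 and -2.23, with SEs of 1.40, 0.81, 0.96 and 0.70. In all 4 members the Wistar values were widely scattered.

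Members were also compared between the sexes within each strain, a contrast that the rule does not name. The rule still bounds the SHR values of both sexes from below and the Wistar values from above. The counts of members are therefore not independent of the choice. In SHR, none of the 44 members differed between females and males by edgeR's quasi-likelihood test at an adjusted p of 0.05, where 12 of 17285 genes (0.0694%) did. At an unadjusted p under 0.05, 9 members passed, 1 higher (member 24) and 8 lower in females, beside 14.9% of all genes tested. Of the 2581 genes that passed at that level, 1406 were higher in females. The median log2 difference of the members, females over males, was -0.04, against 0.01 over all genes. The smallest adjusted p by edgeR was 0.165, for member 32, which had a log2 difference of -0.31 between SHR females and males (SE 0.07). Its values were 21.6, 20.1, 24.4, 23.5 and 27.6 CPM in SHR males and 19.1, 20.6, 18.7, 18.6 and 19.6 CPM in SHR females, and every female but female 2 lay below every male. Of the members, DESeq2 called member 32 alone (log2 difference -0.31, SE 0.08, adjusted p = 0.0135). Over all genes it called 303 of 17285, far more than edgeR, so a single member called is not read as a result.

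In Wistar, 43 members passed the filter on low counts for this comparison and member 4 did not. None of the 43 differed between the sexes by edgeR's quasi-likelihood test, where 11 of 17490 genes (0.0629%) did, and the smallest adjusted p of a member was 0.909. At an unadjusted p under 0.05, 3 members passed, beside 4.08% of all genes. They were members 7 and 16, lower in females with log2 differences of -2.89 (SE 0.88) and -3.11 (SE 0.97), and member 19, higher in females with 2.38 (SE 0.80). DESeq2 called none of the 43, beside 20 of the 17490 genes.

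**Figure D5:**
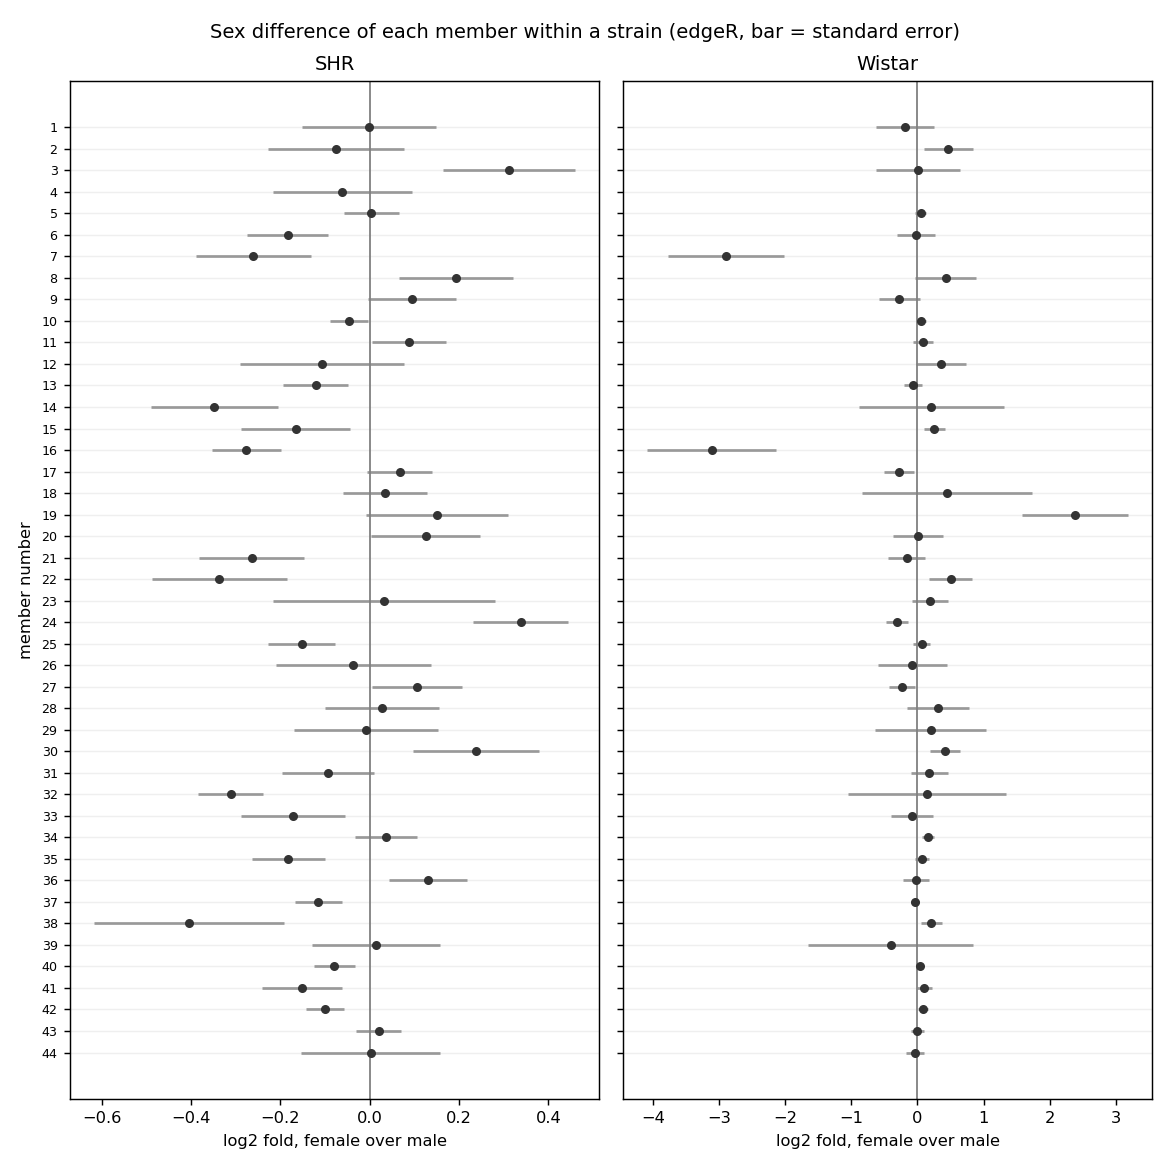
Log2 ratio of females to males for each member within SHR (left) and within Wistar (right), as fitted by edgeR. Bars are 1 standard error, derived from the F statistic of the test. The horizontal scales differ between the panels, and member 4 is missing on the right because it fell below the filter on low counts. All SHR values lie between -0.40 and 0.34, and the widest Wistar values belong to members 7, 16 and 19.

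By strain, edgeR's quasi-likelihood test with an adjusted p under 0.05 called 43 of the 44 members higher in SHR in males, beside 5.14% of all genes tested in that direction, and 34 of 44 in females, beside 0.896%. These counts follow from the rule and nothing is read from them. The member not called in males was member 18, whose Wistar rats were divided. In females the members not called were 14, 18, 19, 22, 29, 31, 32, 33, 39 and 42.

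To give a comparison that the choice did not use, the rule was applied to the rats of a given sex alone and the chosen genes were tested in the other. The rule applied to the 9 male libraries gave 183 genes. In females, 174 of the 183 had a positive log2 difference (median 0.40, against -0.003 over all genes tested). By edgeR's quasi-likelihood test with an adjusted p under 0.05, 44 were called higher in SHR and none lower. DESeq2 called 78 of the 183 higher, and edgeR with all 4 groups in 1 fit called 84 higher. The chosen genes had at least 1 CPM in every SHR male library, while the genes tested include lower levels, so the share over all genes is not matched for level. Over all genes tested in females, edgeR called 0.896% higher, which was 156 genes. That number was 323 without Wistar female 5, 96 without Wistar female 2 and 68 without SHR female 4. It was 76 without SHR female 1 or without SHR female 2. It was 430 with DESeq2 and 439 by edgeR with all 4 groups in 1 fit. The 44 called genes are not the 44 members: the rule places all members among the 183 genes, and 34 of them were called.

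The rule applied to the 10 female libraries gave 120 genes. In males, 117 of the 120 had a positive log2 difference (median 0.65, against -0.004 over all genes tested). By the same edgeR test with an adjusted p under 0.05, 69 were called higher in SHR and none lower. With all 4 groups in 1 fit, 68 were called higher. Here too the share over all genes is not matched for level. Over all genes tested in males, 5.14% were called higher, which was 898 genes. That number was 516 without SHR male 3, 549 without Wistar male 3 and 626 with all 4 groups in 1 fit. A total of 51 genes met the rule within each sex separately. These included all 44 members, which the rule makes certain.

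The table gives no positions, and the order of its rows is not stated to follow the genome. By row, 12 members (27.3%) had another member within 50 places, while 14.2% of the 13755 genes had a member that near, and 11 members had a mirror gene within 50 places, beside 21.1% of the 13755 genes. The nearest pair, members 20 and 33, stood 6 rows apart. Member 20 was highest in Wistar female 4, at 1.896 CPM, where member 33 had 1.30 CPM, and member 33 was highest in Wistar female 2, at 3.05 CPM, where member 20 had 0.518 CPM. Members 8 and 24 stood 11 rows apart. With group means subtracted, log2(CPM + 0.1) over the 19 libraries had a Pearson's r of -0.65 in members 20 and 33 and of 0.68 in members 8 and 24, and r lay between these values in the other 4 pairs within 50 places (-0.44 in members 15 and 23, -0.02 in members 32 and 37, 0.31 in members 9 and 28 and 0.34 in members 7 and 38). The points of a pair share their libraries. The divided members 14 and 39 were not near each other.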

How the data were processed

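RNA of PVN punches (1 mm) from 19 rats, each labelled as a separate animal, was examined. Trimmomatic (Phred score 30) was used by the authors for trimming, STAR for alignment against Rn7 and featureCounts for assignment to genes. The values they deposited are raw counts of 30560 genes, not normalized. Versions, strand setting and annotation release are not given in the sources used here. Of the counts from 1 to 4, 79.9% were even. All 19 columns were used, with 0 left out, and each was mapped to strain, sex and replicate by its label.

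CPM were computed from column totals. The members, lists and tests were chosen with earlier results of these data known. Tests used R 4.3.3 and edgeR 4.0.16 (quasi-likelihood, TMM, Benjamini-Hochberg over all genes tested, threshold 0.05) on the groups compared, or on all 4 groups for the interaction, with genes kept where their mean was above 5 median-of-ratios normalised counts. The SE given with an edgeR difference is its absolute log2 value divided by the square root of the F statistic of the test. DESeq2 1.42.0 was an alternative, with its own SE. Python 3.11.15 (numpy 2.4.6, pandas 2.3.3) gave the remaining values, and matplotlib 3.10.9 the plots. The edgeR and DESeq2 fits of sex in SHR, of strain in females and of the interaction were tested on simulated counts with known changes. Those counts had the same relative scatter for every gene, and no change was placed in genes with few counts. The rule and the step measure were checked on a small table with known answers. The remaining steps were not tested in this way.

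Members named with values were the 10 of widest separation, the 8 of highest median SHR level, those next to the margin, the 3 with the largest and the 3 with the smallest difference between sexes and SD in SHR, any near-silent in Wistar, and any called by sex or interaction. Members outside this rule were named after their values were seen, and the report lists them. The gene lists and cell type markers fixed by symbol, neighbouring genes and similar proteins could not be applied, because identifiers come without symbols in the files, so at most 2 identifiers are printed and members are numbered. Alternatives were other scalings, margins, floors, filters, a DESeq2 test, a joint fit of the 4 groups, a block for the replicate number, other measures of spread, and leaving out each library. A median limit for near-silence, the rule within each sex, the count of divided members and its limits were added after seeing the data.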

Additional observations from a re-analysis of the deposited data

Results flagged for a closer look

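Each member was checked in each group of 4 or 5 rats for a rat whose gap to its nearest neighbour exceeded Dixon's 95% critical value for the group's range. Of 176 such groups, 16 were marked, in 12 members. A chance rate of about 1 in 20 holds for normally distributed values. These were untransformed CPM, some from few counts, and the groups share their rats, so that rate is no reference here. Wistar female 4 accounted for 4 of the marks, Wistar male 5 for 3, and Wistar male 3 and SHR female 5 for 2 each.

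Wistar female 4 was the highest of its group in member 14 (1.39 CPM, the others 0.0831 to 0.126), member 39 (1.92 CPM, the others 0 to 0.300), member 20 (1.896 CPM, the others 0.518 to 0.903) and member 4 (0.0408 CPM, which is 2 counts, the others at 0). Wistar male 5 was the highest in member 14 (1.11 CPM, the others 0.0394 to 0.0784), member 29 (1.23 CPM, the others 0.157 to 0.276) and member 39 (2.07 CPM, the others 0.118 to 0.235). Wistar male 3 was the highest in member 16 (25.5 CPM, the others 0.609 to 1.42) and member 4 (0.706 CPM, the others 0 to 0.0394). Wistar male 2 was the lowest in member 40, at 70.3 CPM against 73.0 to 73.4.

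In SHR, SHR female 5 was the highest in member 36 (13.97 CPM, the others 10.5 to 11.1) and the lowest in member 41 (8.29 CPM, the others 10.4 to 10.8). SHR female 1 was the highest in member 2 (1.35 CPM), SHR female 2 in member 4 (2.36 CPM) and SHR male 2 in member 23 (8.11 CPM, the others 4.58 to 5.26). SHR male 3 was the lowest in member 5 (38.0 CPM, the others 41.3 to 42.6). What sets these rats apart was not tested.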

How the results depend on the processing

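The number of members rested on the margin: 93 genes met the rule with no margin, 27 with the next wider margin tried and 13 with 1.5. TMM scaling gave 48 (42 shared with the 44), median-of-ratios scaling 47 (41 shared), a floor of 0.5 CPM 48 and of 2 CPM 36. Near-silent members numbered 1 with a limit of 0.5 CPM and 4 by the median Wistar level. The median log2 ratio in males was 1.41 as fitted by edgeR against 1.35. DESeq2 called 1 member by sex in SHR in place of 0, and 78 male-chosen genes in females in place of 44. Over all genes it called 303 by sex in SHR in place of 12. With all 4 groups in 1 fit, edgeR called 84 male-chosen genes in females and 68 female-chosen genes in males. A step of at least 2 gave 10 divided members and of at least 5 gave 7.

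Leaving out each library in turn gave 44 to 53 members, 0 to 1 near-silent members (1 without Wistar male 3), median log2 ratios of 1.31 to 1.38 in males and 1.34 to 1.47 in females, and 5 to 9 divided members. Members called by strain then ranged from 39 to 42 in males and from 29 to 37 in females, and 0 were called in every case by sex in either strain or for the interaction. Male-chosen genes called in females ranged from 33 to 55, female-chosen genes called in males from 57 to 67, and members with the larger spread in Wistar from 36 to 39. A group left with fewer rats shares the estimate of spread of the fit.

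Same-numbered rats of the groups compared correlated between -0.37 and 0.55, and not every pair was above 0.1. Differently numbered rats were not correlated for comparison, so whether the numbers pair the rats was not settled. The main fits did not treat them as pairs. With the replicate block, 43 members were called by strain in males, 33 in females and 0 by sex or interaction. In that fit 51 male-chosen genes were called in females and 66 female-chosen genes in males. Over all genes, the block gave 854 called higher in SHR in males and 178 in females. It gave 13 genes called by sex in SHR, 13 in Wistar and 32 for the interaction. Low Wistar levels rest on few counts, at most 18 in member 2 and 36 in member 4.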
